A study of Mus musculus with 33 samples.

Results

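Lcn2, Dmbt1, Saa3, S100a8, S100a9, Slpi, Camp and Stfa3 encode secreted or cytoplasmic proteins of epithelial defence and acute inflammation, and these 8 genes were followed here over 33 arrays of mouse dorsal skin. Each was read from the probe set that carries its symbol alone and has the highest mean log2 signal, of 18193 genes with such a probe set, and each of the 8 had 1 probe set. The genes were picked because their signals at 3 to 17 days after depilation had been seen to differ from those of the natural cycle, so every value that sets depilated against natural skin for them is a description and carries no test. One of the 8, Camp, did not pass the filter on low values (3 or more arrays with a signal that exceeds their own median), which left 7 of 8 for the fits. Dmbt1 passed the filter only through depilated arrays, since in the natural cycle P44 replicate 1 alone had such a signal.

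Skin keeps microbes out partly through proteins that keratinocytes release when the barrier is breached. Some bind iron carriers or the surface of bacteria, some withhold metal ions, and some restrain the proteases that leukocytes and keratinocytes release. Several of these proteins are also stored in neutrophils. In whole tissue a change in the number of cells of a type and a change in the RNA of each cell cannot be told apart.

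All mice were wild-type (WT) C57BL/6, and each array held the upper-mid dorsal skin of 1 mouse. The depilated mice numbered 10, with 2 mice each at D3 for early anagen, at D5 for mid anagen, at both D8 and D12 for late anagen and at D17 for early catagen. D counts days since wax and rosin had been applied to resting skin at 7 weeks of age, and all 10 were female and at least 50 days old. The natural second cycle was covered by 23 mice, 10 of them female, at P23 and P25 (early anagen, 4 arrays), P27 (mid anagen, 3), P29 (late anagen, 3), P34 (1 array, in no phase comparison), P37 and P39 (early catagen, 6), P41 (mid catagen, 3) and P44 (telogen, 3), where P is the postnatal day. Adult skin that was not depilated was not analysed here, so depilation, age and sex cannot be told apart in a comparison of the cycles. The keratinocyte genes Krt14 and Krt10 and the dermal collagen gene Col1a1 were bright on every array, with lowest signals of 13533, 3729 and 3871, and the pan-leukocyte gene Ptprc ranged between 400.2 and 4134. Median signals of the arrays lay between 111.2 and 142.5, and arrays of 1 time point correlated with r between 0.943 (the 2 D5 arrays) and 0.980 over 26988 kept probe sets. Signals are linear values of the MAS 5.0 algorithm, and log2 differences were taken after raising signals under 34.6 to that floor.

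The stretches just upstream of 4 of the genes are shown because their signals stood out after depilation or because they form a pair. S100a8 and S100a9 lie 22595 bases apart on chromosome 3 and their products work as a dimer. RefSeq promoters (GRCm38.p6) were given for 7 of the 8 genes, and the 250 bases before the start are printed 5′ to 3′ on the strand of the gene, with matches to the C/EBP motif TTNNGNAA, searched on both strands, in capitals.
Lcn2, chr2:32387740-32387989, minus strand: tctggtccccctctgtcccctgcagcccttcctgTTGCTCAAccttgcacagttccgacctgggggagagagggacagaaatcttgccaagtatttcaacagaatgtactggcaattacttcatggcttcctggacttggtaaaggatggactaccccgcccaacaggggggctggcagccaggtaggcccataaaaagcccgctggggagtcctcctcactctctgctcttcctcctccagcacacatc
S100a8, chr3:90668821-90669070, plus strand: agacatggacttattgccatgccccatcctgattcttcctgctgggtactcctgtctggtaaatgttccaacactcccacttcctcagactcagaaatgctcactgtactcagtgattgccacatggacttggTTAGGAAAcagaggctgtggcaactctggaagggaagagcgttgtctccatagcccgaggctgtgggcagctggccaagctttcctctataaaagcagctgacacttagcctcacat
S100a9, chr3:90695722-90695971, minus strand: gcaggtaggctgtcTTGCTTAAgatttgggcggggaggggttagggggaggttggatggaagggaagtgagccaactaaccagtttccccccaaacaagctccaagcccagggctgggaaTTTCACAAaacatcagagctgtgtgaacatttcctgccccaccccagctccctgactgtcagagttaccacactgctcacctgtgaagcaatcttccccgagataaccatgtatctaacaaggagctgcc
Stfa3, chr16:36455393-36455642, minus strand: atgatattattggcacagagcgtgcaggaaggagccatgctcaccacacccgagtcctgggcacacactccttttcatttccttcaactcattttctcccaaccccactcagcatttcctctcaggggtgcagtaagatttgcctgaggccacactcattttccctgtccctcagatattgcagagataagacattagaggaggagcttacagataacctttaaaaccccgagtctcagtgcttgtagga

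The C/EBP letters were found upstream of 5 of 7 genes (Lcn2, Saa3, S100a8, S100a9 and Slpi) and of 36.9% of all 27025 promoters of the same length. The letters of AP-1 (TGANTCA), STAT (TTCNNNGAA) and NF-kB, also searched on both strands, were found upstream of 0 of the 7, against 6.87%, 7.18% and 4.60% of all promoters. These are matches of letters in a short window, not sites.

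Depilated skin held much more Lcn2, Dmbt1 and Stfa3 transcript at D3 than any natural array, with Slpi just above them. At D3 both arrays lay above all 23 natural arrays for 4 of the 7 genes that passed the filter (Lcn2, Dmbt1, Slpi and Stfa3), where 8.44% of all kept probe sets did so. At D5 and at D8 Stfa3 alone among the 7 did, against 4.11% and 4.64% of all kept probe sets, and at D12 and D17 none of the 7 did, against 2.63% and 3.35%. Since the genes were chosen on these values, the shares are printed as background only. Dmbt1 also entered the 7 only through depilated arrays, so its place among the 4 is no support.

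**Figure D1:**
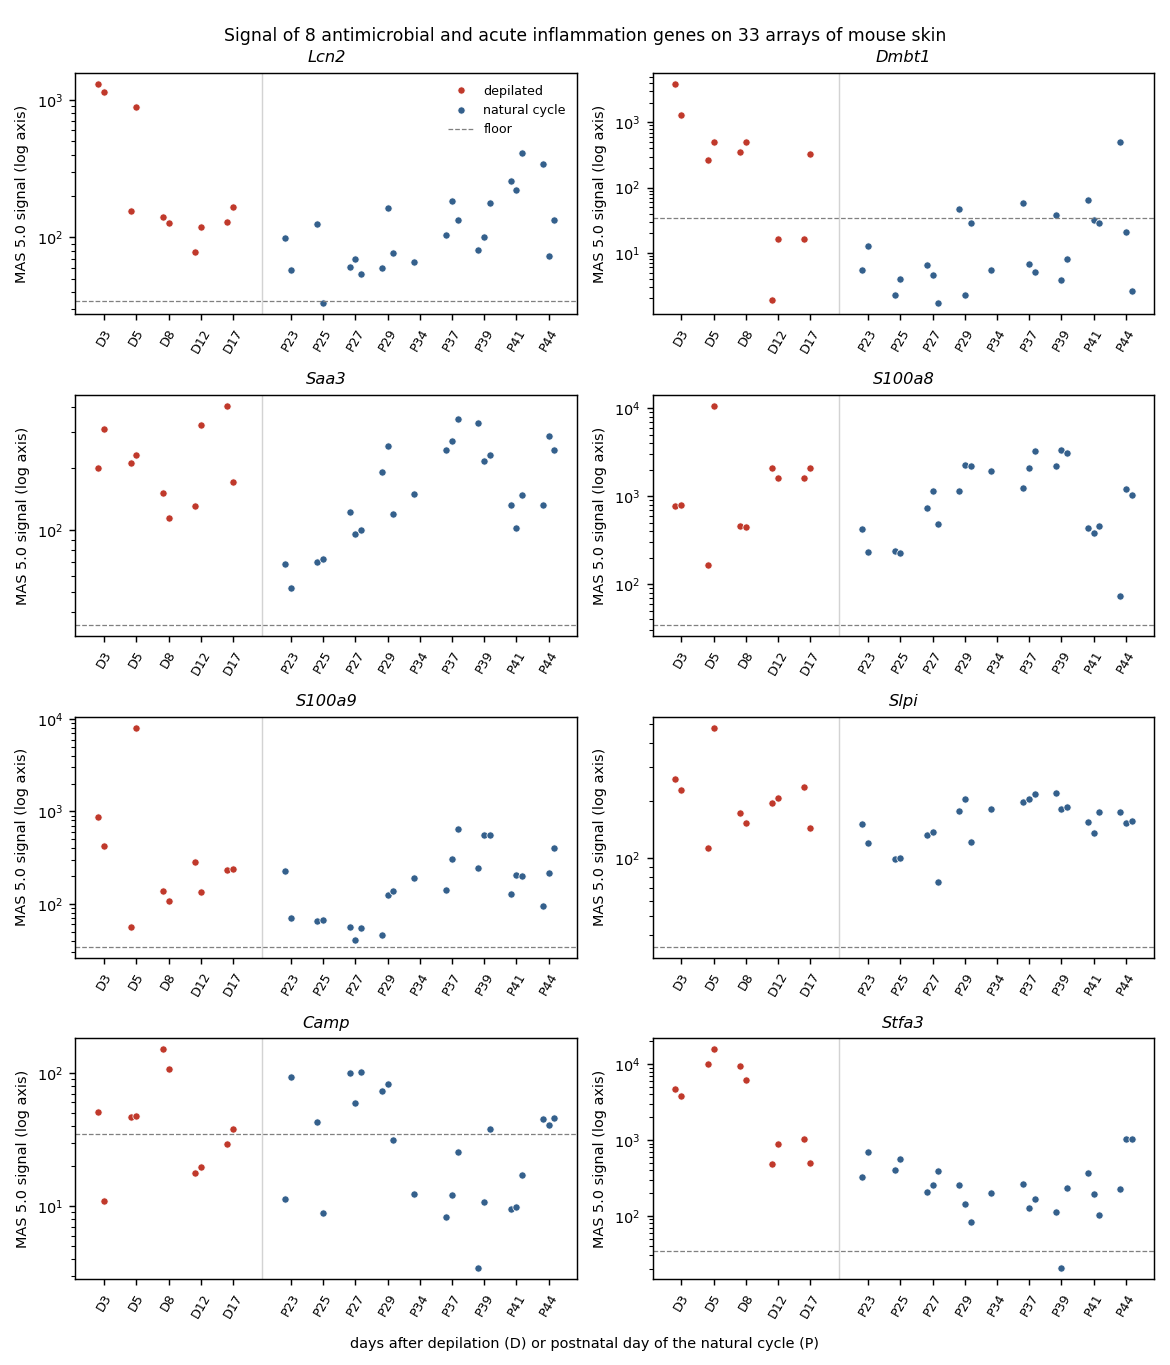
Signal of each of the 8 genes on all 33 arrays, on a log axis, with depilated mice (D, days after depilation) in red at the left and natural-cycle mice (P, postnatal day) in blue at the right; each point is 1 mouse and the dashed line is the floor of 34.6. Lcn2, Dmbt1 and Stfa3 sit above all natural arrays at D3, S100a8 and S100a9 are far above them only on 1 of the 2 D5 arrays, and Camp scatters around the floor.

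Lcn2, a lipocalin that binds bacterial iron carriers, had signals of 1300 and 1143 at D3, against 98.9, 57.6, 124.9 and 33.2 on the 4 arrays of natural early anagen. The lower D3 array was 2.80-fold above the highest natural array, P41 replicate 3 at 407.5. The log2 difference of D3 from early anagen was 4.11 ± 0.61 (SE, 2 against 4 arrays), and from telogen 3.03 ± 0.64. At D5 the 2 mice parted, with 156.1 and 887.2, and only replicate 2 lay above the natural range. By D8 the signals were 141.4 and 127.3, by D12 77.8 and 117.8 and by D17 129.2 and 165.8, all inside the natural range of 33.2 to 407.5. The high level of Lcn2 was therefore seen on 3 of the 10 depilated arrays.

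Dmbt1, a scavenger receptor protein of mucosal surfaces that binds bacteria, was at or under the floor in most of the natural cycle. Its signals were 3868 and 1302 at D3, 262.1 and 504.4 at D5 and 355.7 and 510.2 at D8, then 1.9 and 16.1 at D12 and 16.1 and 328.3 at D17. In the natural cycle 18 of 23 arrays were under the floor, the median was 6.7 and the highest array was P44 replicate 1 with 505.1. Without that array the natural maximum was 65.3, and both D5 and both D8 arrays then lay above it. D3 exceeded early anagen by at least 6.02 on the log2 scale and D5 exceeded mid anagen by at least 3.39, since every natural array of those phases was under the floor. Dmbt1 thus stayed high to D8, when Lcn2 was already back in its natural range, and the D17 mice differed from each other, with 1 under the floor.

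Camp encodes the precursor of cathelicidin, an antimicrobial peptide of neutrophils and keratinocytes. Its signals ran between 11.0 and 150.3 after depilation, with 4 of 10 arrays under the floor, and between 3.4 and 101.9 in the natural cycle, with 12 of 23 under it. The 2 highest of all arrays were those of D8 (150.3 and 107.1), while D3 gave 50.9 and 11.0, so the D3 arrays were not the high ones for Camp.

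S100a8 and S100a9 encode the subunits of calprotectin, which binds zinc and manganese and is abundant in neutrophils and in keratinocytes of injured skin. S100a8 had 772 and 803.6 at D3, against 430.1, 232.7, 241.4 and 228.6 in early anagen, a log2 difference of 1.53 ± 1.04 (SE). Both D3 arrays were above early anagen but far below natural early catagen, where the 6 arrays ranged between 1229 and 3354 with a median of 2654. S100a9 had 871.7 and 418.4 at D3, against 229.4, 69.7, 65.9 and 66.5 in early anagen, a log2 difference of 2.72 ± 1.11. Replicate 1 of D3 lay above every natural array for S100a9 (highest 640.2, P37 replicate 3) and replicate 2 did not.

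The largest signals of the pair came from a single mouse. D5 replicate 2 had 10649 for S100a8 and 8058 for S100a9, while D5 replicate 1 had 167.7 and 56.1, below all 3 mid anagen arrays for S100a8 (743.5, 1149 and 479.0). The 2 mice differed by 63.5-fold for S100a8 and by 144-fold for S100a9, and the S100a9 difference was the largest excess of replicate 2 among all 26988 kept probe sets. Over both mice the log2 differences of D5 from mid anagen were 0.85 ± 1.10 for S100a8 and 3.74 ± 1.17 for S100a9. Without D5 replicate 2 they were -2.15 and 0.16, so the direction for S100a8 turned on 1 mouse. From D8 on S100a8 gave 456.0 and 444.5, then 2096 and 1616 at D12 and 1628 and 2081 at D17, all inside the natural range of 72.7 to 3354. S100a9 gave 138.3 and 108.0 at D8, 282.6 and 134.0 at D12 and 234.0 and 239.1 at D17, also inside it. The probe set of S100a8 is of a type that can bind more than 1 transcript.

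D5 replicate 2 was high for most of the group. It lay above all natural arrays for 5 of 7 genes (Lcn2, S100a8, S100a9, Slpi and Stfa3), where 6.48% of all kept probe sets did, and replicate 1 for 1 of 7 (Stfa3), where 12.5% did. On the log2 scale replicate 2 exceeded replicate 1 by 7.17 for S100a9, 5.99 for S100a8, 2.51 for Lcn2, 2.09 for Slpi, 0.94 for Dmbt1, 0.65 for Stfa3 and 0.14 for Saa3, against a median of -0.02 over all kept probe sets. Differences over 2 in either direction were found for 1.32% of the kept probe sets. Of the 15 genes with the largest excess in replicate 2, looked up after the values were seen, 8 were hair shaft genes (Krt33b, Krt34, Krt86 and 5 Krtap genes), and Krt6b, Sprr2d, Rptn and the stefin Stfa2l1 were also among them. Stress keratinocyte genes had a median excess of 1.58 (21 genes), neutrophil genes of 0.80 (14) and macrophage genes of 0.82 (19). What part these had in the S100a8 and S100a9 signals was not tested.

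**Figure D2:**
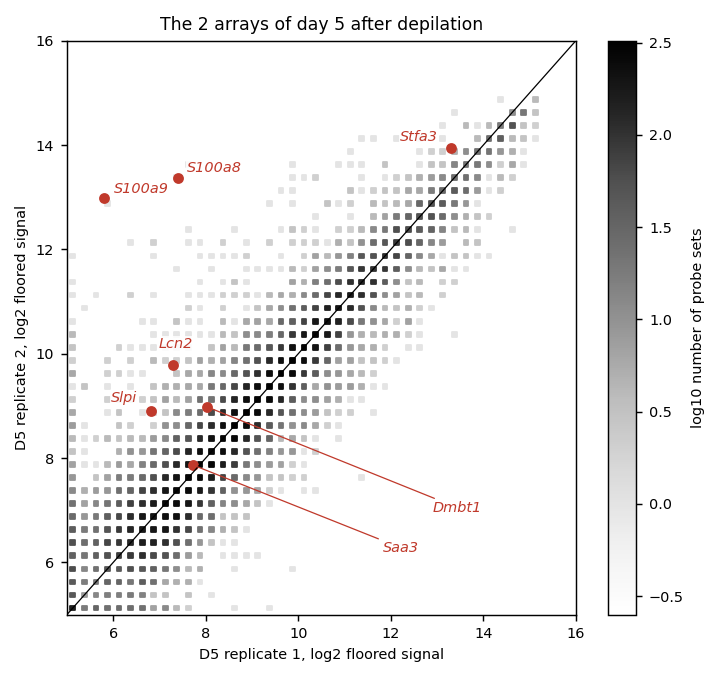
Log2 floored signal on D5 replicate 2 (vertical axis) against D5 replicate 1 (horizontal axis), with the density of all 26988 kept probe sets in grey and the 7 genes that passed the filter in red; the line marks equal signal. S100a9 and S100a8 lie 7.17 and 5.99 log2 units above the line and Stfa3 only 0.65, while Saa3 lies close to it.

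Saa3, a serum amyloid A protein made outside the liver in acute inflammation, was within its natural range on 9 of 10 depilated arrays. D3 gave 201.5 and 312.2, against 68.8, 52.2, 69.7 and 72.7 in early anagen, a log2 difference of 1.94 ± 0.37 with no overlap. Set against telogen (132.8, 286.8 and 244.9) the D3 difference was 0.25 ± 0.39, so that it depended on which natural phase was used. D5 gave 212.0 and 233.1, D8 152.0 and 114.2, D12 131.3 and 325.7, and D17 402.9 and 170.9, of which 402.9 was the only value above the natural maximum of 346.6.

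The remaining 2 genes encode protease inhibitors, and they behaved differently. Slpi, which inhibits elastase of neutrophils, had 259.2 and 228.3 at D3, against 151.5, 120.7, 98.9 and 99.9 in early anagen, a log2 difference of 1.07 ± 0.35. The lower D3 array was only 1.05-fold above the highest natural array (218.3, P39 replicate 1). D5 gave 112.6 and 480.5, and the log2 difference from mid anagen was 1.07 ± 0.37, or 0.02 without D5 replicate 2. Later days gave 173.2 and 152.6 (D8), 195.4 and 207.6 (D12) and 234.9 and 144.1 (D17), of which only 234.9 lay above the natural maximum.

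Stfa3, a stefin A that inhibits cysteine cathepsins, was the only gene of the 8 above every natural array on all 6 arrays of D3 to D8; without P44 replicate 1 Dmbt1 was so too. Its signals were 4738 and 3805 at D3, 10023 and 15694 at D5 and 9359 and 6284 at D8, against a natural range of 20.3 to 1035 with a median of 235.8. The lowest D5 array was 9.68-fold above the highest natural array. The log2 differences from the matching natural phase were 3.15 ± 0.67 at D3, 5.51 ± 0.71 at D5 and 3.95 ± 0.59 over D8 and D12. D12 gave 479.6 and 891.2, a log2 difference from D8 of -3.55 ± 0.44, and D17 gave 1021 and 504.7, which is 2.45 ± 0.63 above early catagen on the log2 scale and inside the range of telogen. The natural maximum came from the male P44 replicate 2, and the highest of the 10 natural females was 406.0, below all 10 depilated arrays. Mouse stefin A genes form a cluster of close copies, and whether this probe set also reads a relative was not tested. Its relative Stfa2l1 had a D3 log2 difference from early anagen of 1.79 ± 0.93 (limma, adjusted p = 0.124).

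**Figure D3:**
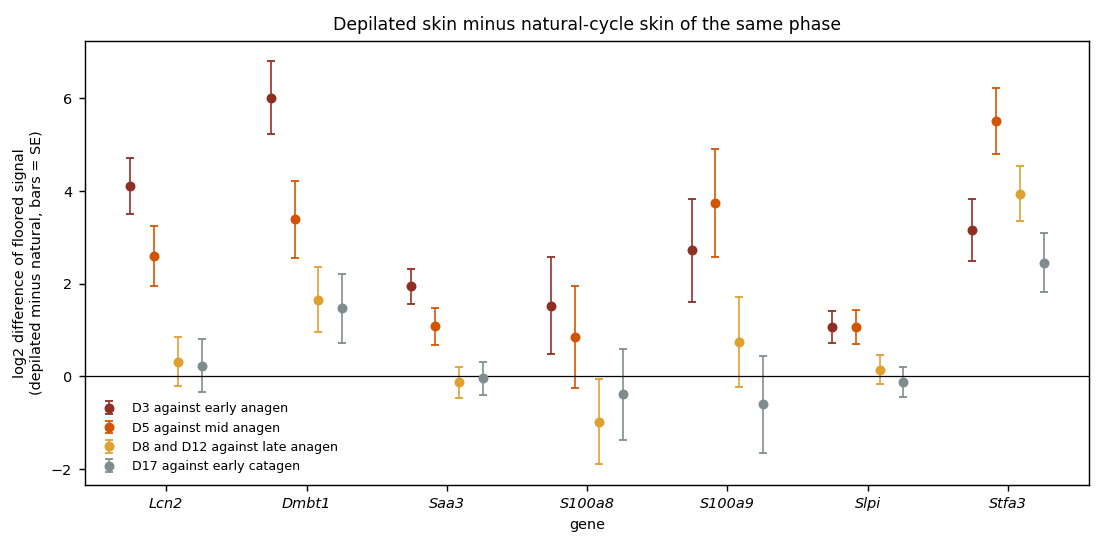
Log2 difference of depilated minus natural skin of the same phase for the 7 genes that passed the filter, in the order D3, D5, D8 with D12, and D17; points are differences from the fit of all 33 arrays and bars are standard errors. Stfa3 stays above 2 in all 4 comparisons, Lcn2 and Slpi return to near 0 after D5, and the Dmbt1 values at D3 and D5 are lower bounds, since only natural arrays lie under the floor there; later Dmbt1 values have floored arrays in both cycles and are no bound.

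Over the 7 genes the median log2 difference was 2.72 at D3, 2.60 at D5, 0.32 over D8 and D12 and -0.04 at D17, against medians of -0.09, -0.06, -0.04 and -0.03 over all kept probe sets. With telogen in place of the matching phase the first and second were 1.57 and 1.57. Without D5 replicate 2 the D5 median was 1.01.

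Within the natural cycle, which the choice of genes did not use as a contrast of its own, an F test across 6 phases (22 arrays) was passed by 6 of 7 genes, where 72.6% of all kept probe sets passed. Dmbt1, kept by the filter only through depilated arrays, did not pass (limma, adjusted p = 0.352). The smallest adjusted p were 4.30e-06 for Saa3 and 5.37e-04 for S100a8, and Lcn2, S100a9, Slpi and Stfa3 had 0.00657, 0.00110, 0.00265 and 0.0109. With 7 genes this share is near the background and is no result about the group.

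S100a8, S100a9, Saa3 and Slpi had their highest means in early catagen. All but S100a9 were called lower in mid catagen, while Lcn2 rose there to its highest mean. S100a8 averaged 424.6 ± 39.8 in mid catagen (SD, n = 3) and 2546 ± 854 in early catagen (n = 6), and it fell by 2.51 ± 0.30 on the log2 scale (limma, adjusted p = 5.64e-04), with all 3 mid catagen arrays below all 6 of early catagen. Saa3 averaged 127.8 ± 23.2 in mid catagen and 274.5 ± 54.2 in early catagen, and fell by 1.10 ± 0.18 (adjusted p = 0.00243), also with no overlap. Slpi averaged 154.6 ± 19.5 and 200.4 ± 15.4 in the same phases and fell by 0.38 ± 0.11 (adjusted p = 0.0269), a call that was lost with median centring, in the joint fit of 33 arrays and without P37 replicate 3, P41 replicate 1 or P41 replicate 2. Lcn2 had 256.5, 220.2 and 407.5 in mid catagen, against 81.4 to 183.0 with a median of 118.9 in early catagen, and rose by 1.19 ± 0.30 (adjusted p = 0.0132), which was lost in the joint fit and without P41 replicate 3. These were 4 of 7 genes called in this step, where 35.3% of all kept probe sets were. S100a9 averaged 178.4 ± 43.3 in mid catagen and 408.1 ± 204.3 in early catagen, and its difference of -1.04 ± 0.46 did not pass (adjusted p = 0.109).

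Earlier in the cycle Saa3 was lower in early anagen (65.9 ± 9.3, SD, n = 4) than in telogen (221.5 ± 79.6, n = 3), by -1.69 ± 0.27 on the log2 scale (limma, adjusted p = 0.00549), the only call among the 7 in that step, where 26.8% of all kept probe sets were called. In mid anagen S100a8 averaged 790.4 ± 337.4 (n = 3), against 283.2 ± 98.1 in early anagen, and Saa3 105.8 ± 14.2, against 65.9 ± 9.3, with differences of 1.45 ± 0.34 (adjusted p = 0.0265) and 0.69 ± 0.16 (adjusted p = 0.0257). Those 2 calls among 7, where 19.7% of all kept probe sets were called, were lost for both genes when P23 or P25 alone stood for early anagen, and also without P27 replicate 1 or P27 replicate 2.

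No gene of the 7 was called for late against mid anagen or early catagen against late anagen. In these steps limma called 0 of 26988 probe sets (0% of all), with 5323 and 3596 at an unadjusted p under 0.05. At that unadjusted level Saa3 and S100a8 passed in the first of these steps, with differences of 0.78 and 1.27, and Saa3 and S100a9 in the second, with 0.58 and 1.95. The one-way test of the study's methods, run here on log2 floored signals, called 1062 and 1000 probe sets at the study's threshold of p under 0.01. None of the 7 genes was among them. After an adjustment that the study does not state, this test called 0. For telogen against mid catagen limma called none of the 7, where 5.88% of all kept probe sets were called, and none of them was under an unadjusted p of 0.05 or past the methods' test. That step rested on P44 replicate 1, whose S100a8 signal was 72.7, against 1216 and 1041 in the other telogen mice. Without it S100a8 was higher in telogen than in mid catagen by 1.41 on the log2 scale and its log2 difference of early anagen from telogen was -2.045, and both then passed. P44 replicate 1 also had 505.1 for Dmbt1, against 21.2 and 2.6, and 227.1 for Stfa3, against 1035 and 1031.

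**Figure D4:**
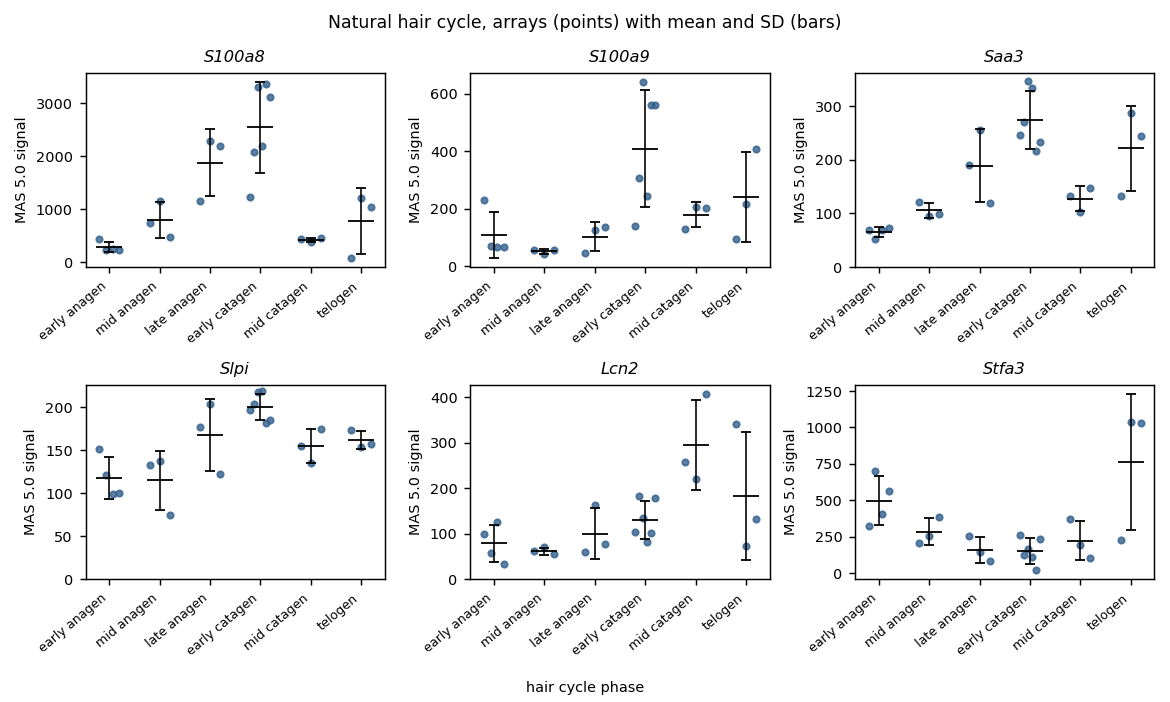
Signal of 6 genes on the arrays of the natural cycle by phase, without P34; each point is 1 mouse and the black marks are the mean and SD. S100a8, S100a9, Saa3 and Slpi have their highest means in early catagen and lower ones in mid catagen, where the fall of S100a9 did not pass the test. Lcn2 is highest in mid catagen, and telogen is split for Stfa3 by 1 mouse.

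Sex had no called difference in the group. In the natural cycle, with phase in the fit, limma called 0 of 7 genes between females and males, where 0.567% of all kept probe sets were called, and at an unadjusted p under 0.05 only Dmbt1 passed. Its female minus male log2 difference was 0.68 ± 0.32 (adjusted p = 0.449), with P44 replicate 1 among the females. The others lay between -0.69 for S100a8 and 0.23 for Lcn2, and none of these passed.

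The genes did not form a single profile. Over the 23 natural arrays, which share phases, the highest correlations of log2 signal were between Saa3 and Slpi (Pearson r = 0.77), Saa3 and S100a8 (0.72) and Saa3 and S100a9 (0.62), while S100a8 and S100a9 reached 0.55 and Stfa3 was at or below 0.01 with all others. Over the 10 depilated arrays S100a9 and Slpi reached 0.92, Lcn2 and Dmbt1 0.80 and S100a8 and S100a9 0.79. Without D5 replicate 2 these were 0.80, 0.82 and 0.51. Over all 33 arrays the genes most like the mean standardized profile of the 7 were Syngr2, Ggct, Lce3f, Spsb3, Urah, Zbtb7a, Aknad1, Il1f6, Sprr2d and Irx3 (r between 0.74 and 0.79), and over the natural arrays Usp2, Sgpl1, Ube2r2, Sidt2 and Syngr2 (0.85 to 0.89). Il1f6 is an older symbol of the cytokine Il36a, and Lce3f and Sprr2d encode proteins of the cornified envelope. Taken alone, Dmbt1 was most like Foxa1, Cited1 and Wfdc2 over all 33 arrays (r = 0.96, 0.95 and 0.90), named after the values were seen. Over the natural arrays, 18 of 23 of them under the floor for Dmbt1, these were Foxa1, Cited1 and Iah1 (0.95, 0.87 and 0.78). Dmbt1, Wfdc2 and Ltf were all higher on D3 replicate 1 than on D3 replicate 2. What these genes share was not tested.

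Genes that act with the group were then tested at D3 against natural early anagen, with the 8 genes left out of every list. Of all kept probe sets 18.5% were called higher and 26.1% lower, with a median log2 difference of -0.09. Upstream cytokine signals, which include the receptors and transcription factors that switch such genes on, had 13 of 26 genes called higher and 1 lower (median 0.59), with 7 higher without D3 replicate 2 and 5 against telogen. Inhibitors of such signalling are also on this list, and Nfkbia and Tnfaip3 were among the 13 while Il1rn was not. Il20ra, a receptor subunit for cytokines of the interleukin 20 family, had 1039 and 1003 at D3, against 209.3 to 384.6 in early anagen, and rose by 1.80 ± 0.47 (limma, adjusted p = 0.00353). Stat3, which carries signals of interleukin 6 type cytokines, had 4523 and 4727, against 730.6 to 2046, and rose by 1.75 ± 0.29 (adjusted p = 6.34e-05). Il1r1, the signalling receptor of interleukin 1, had 320.0 and 565.6, against 902.8 to 1192, and fell by 1.24 ± 0.17 (adjusted p = 6.82e-06). The C/EBP factors Cebpd and Cebpb, named after their values were seen because of the letters searched above, rose by 1.70 ± 0.32 and 0.97 ± 0.17 (adjusted p = 2.47e-04 and 7.47e-05). Cebpa, the other C/EBP factor on this list, was not called (0.15 ± 0.17, limma, adjusted p = 0.489).

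Stress keratinocyte genes, those of wounded or hyperproliferative epidermis, had 7 of 21 called higher and 4 lower (median 0.60), with 3 higher and 7 lower without D3 replicate 2 and 11 higher when D5 replicate 1 or D5 replicate 2 was left out. Sprr1b, a precursor of the cornified envelope, had 527.5 and 2018 at D3, against 29.4 to 162.1 in early anagen, and rose by 3.99 ± 1.05 (limma, adjusted p = 0.00400). Hbegf, a growth factor of the EGF family, had 607.2 and 938.5, against 81.3 to 153.3, and rose by 2.76 ± 0.30 (adjusted p = 3.58e-07). Gjb2, the gap junction protein connexin 26, had 209.1 and 695.5, against 2862 to 7120, and fell by 3.48 ± 0.36 (adjusted p = 2.53e-07).

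S100, stefin and cystatin relatives had 7 of 14 called higher and 2 lower (median 0.41). Under quantile normalization, as without D3 replicate 2, the counts were 3 higher and 1 lower. Csta1 and Cstb, both cysteine protease inhibitors, rose by 1.08 ± 0.36 and 0.96 ± 0.14 (limma, adjusted p = 0.0184 and 1.91e-05). S100a3, an S100 protein of the hair cuticle, was under the floor on both D3 arrays, against 383.3 to 3209 in early anagen, and fell, with a log2 difference of -5.15 that the floor bounds (adjusted p = 2.35e-07).

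Other antimicrobial genes had 3 of 16 called higher and 2 lower (median -0.17). Wfdc2, a relative of Slpi with the same kind of domain, had 1184 and 354.7 at D3, against 12.1 to 35.4 in early anagen, and rose by 4.22 ± 0.66 (limma, adjusted p = 2.69e-05), and Hamp, the iron hormone hepcidin, had 93.1 and 52.9, against 139.5 to 323.0, and fell by 1.65 ± 0.43 (adjusted p = 0.00353). Ltf, the iron-binding protein lactoferrin, had 645.1 and 202.5, against 4.5 to 28.0, all under the floor, and rose by at least 3.38 (adjusted p = 3.66e-04). Acute phase genes had 2 of 14 called higher and 3 lower (median -0.04). Leaving out a single array (D3 replicate 1, D3 replicate 2, P23 replicate 2 or P25 replicate 2) gave 1 higher, and leaving out D3 replicate 1 gave 1 lower. Among them were Socs3, a feedback inhibitor of cytokine signalling, with a rise of 1.63 ± 0.23 (adjusted p = 1.00e-05), Saa1 with 1.02 ± 0.38 (adjusted p = 0.0332) and the complement inhibitor Serping1, which fell by 1.48 ± 0.34 (adjusted p = 0.00122).

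Receptors, partners and protease targets of the group had 5 of 20 called higher and 5 lower (median 0.06), with 2 higher without D3 replicate 2, 3 higher without P25 replicate 2 and 3 lower without D3 replicate 1. The serine protease Prtn3 rose by 1.84 ± 0.58 (limma, adjusted p = 0.0138) and Lgals3, the lectin galectin 3, by 0.83 ± 0.15 (adjusted p = 1.20e-04), while Tpsb2, a tryptase of mast cells, had 77.4 and 511.2 at D3, against 516.0 to 839.7 in early anagen, and fell by 1.73 ± 0.49 (adjusted p = 0.00687).

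Set against telogen in place of early anagen, the lists looked different. Over 138 different genes, 38 were called higher and 18 lower against early anagen, and 18 higher and 43 lower against telogen, with 12 macrophage genes and 10 of the receptors and partners among the lower. Without D3 replicate 2 the counts against early anagen were 19 higher and 25 lower.

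**Figure D5:**
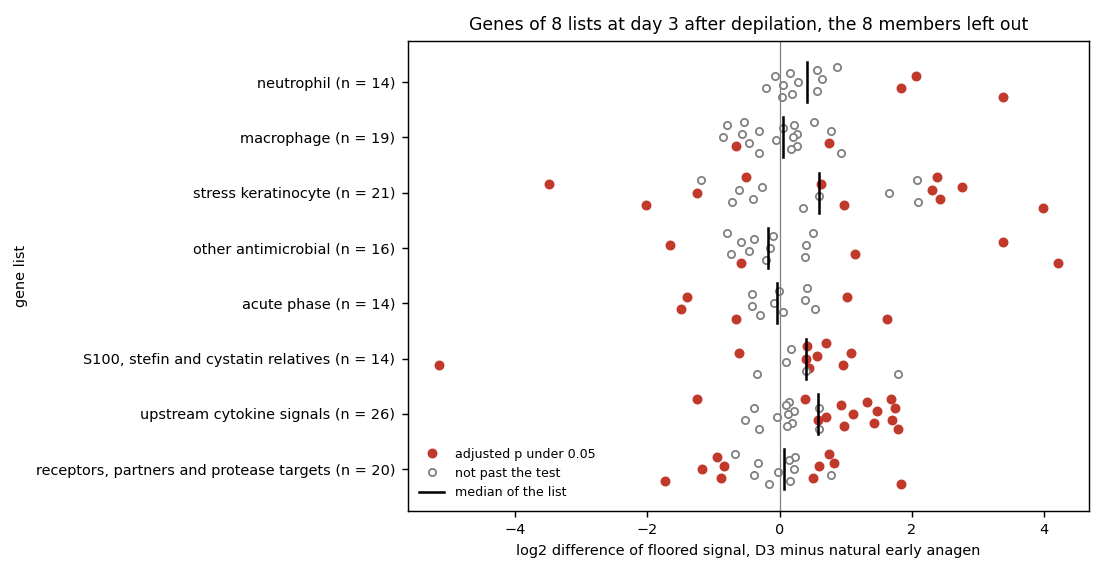
Log2 difference of D3 minus natural early anagen for each kept gene of 8 lists (rows), the 8 genes of interest left out; filled points passed the test at an adjusted p under 0.05, open points did not, and the black bar is the median of the list. Upstream cytokine signals have 13 filled points at the right and 1 at the left, and neutrophil genes have 3 at the right.

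Markers of leukocytes were measured because neutrophils carry several of these proteins. Neutrophil genes had 3 of 14 kept genes called at D3, each of them higher (median 0.42), namely Ltf, Prtn3 and Clec4d, a lectin receptor, whose D3 signals of 288.0 and 161.0 stood against 24.5 to 102.6 in early anagen (2.07 ± 0.45, limma, adjusted p = 8.44e-04). Of the 3 markers from a fixed neutrophil set that could be tested, Ltf and Prtn3 were called and Csf3r was not. With telogen as reference 1 neutrophil gene was called higher by limma. The count of lower neutrophil genes was 0 in the main fit and with any single array left out, and reached 3 in 1 of 46 settings. Under the stricter filter (17 or more arrays above their own median) 0 were called higher, but Ltf and Prtn3 could not meet that filter. Their medians were 41.8 and 66.9 over the natural arrays and 85.65 and 100.15 over the depilated ones. Ltf and Prtn3 were thus removed and not tested, while it was not examined whether Clec4d was removed or was tested and did not pass. Macrophage genes had 1 of 19 higher, the lipopolysaccharide receptor Cd14 at an adjusted p of 0.0499, and 1 lower, the phagocytic receptor Mertk (-0.65 ± 0.19, adjusted p = 0.00906). The count of higher macrophage genes moved in 29 of 46 settings and was 0 with no filter, with the lower floor and with median centring, and the count of lower ones was 5 without D3 replicate 2 and 0 without D3 replicate 1.

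The summed signal of 26 neutrophil genes was 7203 and 10600 at D3, against 3399 to 14412 over the natural arrays, and between 3637 and 6475 at D5. It was therefore inside the natural range at both days, a range whose top came from telogen. Against the matching phases, D3 replicate 2 lay above the early anagen arrays (5572 to 8656) and D3 replicate 1 did not. D5 replicate 2 likewise lay above the mid anagen arrays (3399 to 4964) and D5 replicate 1 did not. Bright genes weigh most in such a linear sum. On D3 replicate 2 Il1r2 and Lcp1 had 3085 and 1916, while Ltf, Prtn3 and Csf3r had 202.5, 384.1 and 132.5. The sum therefore says little about the dimmer markers. Of the 9 markers in the fixed neutrophil set 8 were measured and 3 kept (Prtn3, Ltf and Csf3r). Mpo, Elane, Ctsg, Ngp and Cxcr2, genes of neutrophil granules and of chemokine response, did not pass the filter, and their highest signals over all depilated arrays were 84.3, 119.9, 56.5, 160.5 and 134.9, against 110.4, 89.1, 89.1, 122.9 and 46.7 in the natural cycle. On D5 replicate 2, the array with the highest S100a8 and S100a9, Mpo, Elane and Ngp had 11.1, 5.0 and 21.0, all under the floor, while Cxcr2 had its highest signal of 134.9 and Ctsg had 45.5. The 3 kept markers were higher on that array than on D5 replicate 1, with 173.1 and 51.2 for Ltf, 107.1 and 14.9 for Prtn3 and 136.4 and 70.3 for Csf3r. On D5 replicate 1 Mpo, Elane, Ngp and Ctsg had 58.0, 49.6, 54.0 and 56.5, and Cxcr2 had 18.5, under the floor. The lower values of Mpo, Elane, Ngp and Ctsg on D5 replicate 2 are thus differences near the floor and give no clear direction. The number of neutrophils in that skin was not tested. Csf3r, the receptor of granulocyte colony-stimulating factor, had 163.0 and 132.5 at D3, against 32.1 to 240.8 in the natural cycle. The summed signal of 20 macrophage genes was 20284 and 53855 at D3 and 20611 and 38727 at D5, against 13433 to 117112 over the natural arrays, with P44 replicate 1 highest.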

How the data were processed

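The authors measured RNA of dorsal skin from 33 mice on Affymetrix mouse expression arrays, and the deposited values are linear MAS 5.0 signal intensity values (version not given in the sources used here) of 45037 probe sets; the methods state that outlier samples had been removed. Phases followed the series description, since the words early anagen in the labels of P41, P44 and all depilated samples differ from it. Signals were floored at 34.6, the 25th percentile, log2-transformed and filtered (26988 kept). Genes were named by the platform annotation, in which 34945 probe sets had 1 symbol, 932 had several and 9160 had none. Fits used limma 3.58.1 in R 4.3.3 with p-values adjusted by Benjamini-Hochberg across the 26988 at a threshold of 0.05, each natural step on its own arrays, and depilated against natural skin in a fit of 33 arrays with 1 mean per time point. In the natural tests p-values measure the spread between mice of a phase. For early anagen and early catagen this also holds differences between P23 and P25 or between P37 and P39. In the D3 tests the spread is that between mice within time points, pooled over all 33 arrays. Scripts were tested on simulated data.

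The 8 genes, the 8 lists (241 entries, 200 on the array, 144 kept) and the tests were chosen with earlier results of these data known. Named list genes were, per list, the 2 called genes that rose most and the 1 that fell most, the fixed neutrophil markers, and the genes most like the group. The genes most like Dmbt1 alone were added later. The settings varied were the floor, the filter (none, stricter), quantile normalization, median centring, second probe sets (lists only, as each member has 1), each array left out, a replicate block, sex, a joint fit, P34 with late anagen, the methods' one-way test, P23 or P25 alone, telogen as reference, and only the D3, P23 and P25 arrays.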

Additional observations from a re-analysis of the deposited data

Results flagged for a closer look

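Sets of 4 or 6 arrays were examined for each of the 8 genes (late anagen after depilation, and natural early anagen, late anagen with P34 and early catagen). In 6 of 31 sets, all natural, 1 array stood far from the rest by Dixon's criterion, which chance meets in about 1 of 20 sets. In early anagen P23 replicate 1 was high for S100a8 (430.1) and S100a9 (229.4), and P23 replicate 2 was low for Saa3 (52.2). P29 replicate 1 (47.4, late anagen with P34) and P37 replicate 1 (57.7, early catagen) were high for Dmbt1, and P39 replicate 3 (38.1, early catagen) for Camp. In these 3 sets most other arrays lay under the floor. For P29 replicate 1 and P39 replicate 3 all others did, so any value over the floor would pass and the chance rate does not hold for them.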

How the results depend on the processing

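The F test was passed by 6 of 7 genes with any single array left out and with the replicate block, and by 4 in the joint fit of 33 arrays, where S100a9 (adjusted p = 0.0730, limma) and Slpi (0.0623) did not pass; sex gave 0 calls with any array left out. For mid against early anagen the count of 2 was 0 with no filter, in the joint fit, with the adjusted methods' test and with P23 or P25 alone, 1 with quantile normalization and the unadjusted methods' test, 3 with the replicate block, and 0 to 2 leaving out 1 array. For early anagen against telogen the count of 1 was 0 with P25 alone and 1 to 2 leaving out 1 array (2 without P23 replicate 1 or P44 replicate 1). For mid against early catagen the count of 4 was 2 in the joint fit, 5 with the block and 3 to 5 leaving out 1 array, and for telogen against mid catagen the count of 0 was 1 with no filter (Camp) and 0 to 1 leaving out 1 array. Saa3 and S100a8 passed mid against early catagen in all 20 alternatives, Lcn2 in 18 (not in the joint fit or without P41 replicate 3) and Slpi in 15 (not with median centring, in the joint fit or without P37 replicate 3, P41 replicate 1 or P41 replicate 2). S100a8 in telogen against mid catagen (0.09) was -0.00152 with median centring and -0.62 and -0.51 without P44 replicate 2 or 3, and 1.41 without replicate 1. With telogen as reference S100a8 was 1.01 over D8 and D12 and 2.03 at D17, and the medians of the group at D3 and D5 were 1.57 and 1.57. Leaving out 1 array gave medians of 2.26 to 3.25 at D3, 1.01 to 3.85 at D5, 0.17 to 0.75 over D8 and D12 and -0.21 to 0.05 at D17. Without D5 replicate 2, S100a8 at D5 was -2.15 (3.84 without replicate 1), and without D17 replicate 2, Dmbt1 at D17 was -0.15 and Saa3 0.58 (3.10 and -0.66 without replicate 1). Of list genes, 38 higher and 18 lower became 18 and 43 against telogen, 11 lower with only the D3, P23 and P25 arrays, and 19 to 43 higher and 11 to 25 lower leaving out 1 array. The 3 neutrophil genes called higher were 0 under the stricter filter, which removed Ltf and Prtn3 before the test. Whether it also removed Clec4d was not examined. The causes were not tested. Of 171 pairs of equal replicate number, 32 had correlated deviations over 0.1 (median r = 0.00, range -0.26 to 0.39). The main fits therefore did not pair mice by replicate number, and a shared batch in part of the series was not tested. Precision is limited by the 2 arrays per day and, for Dmbt1 and Camp, by signals near the floor.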
